A study of Rattus norvegicus with 28 samples.

Results

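Axon guidance ligands and receptors were examined in rat spinal cord after contusion and after transplantation of neural progenitor cells (NPCs), on single-dye microarrays that measure the amount of each transcript as the brightness of a DNA probe. The members were taken by name: every gene of the array annotation named as a class 3 to 7 semaphorin, plexin, neuropilin, ephrin, Eph receptor, Slit, Robo, netrin, Unc5 receptor or Dcc was included. This gave 65 genes of the 35469 gene names on the array, read by 95 probes. All 65 matched a RefSeq gene, of which Ntn2l is now called Ntn3 and Plxna4a is now called Plxna4. Unc50 entered through its spelling and is no netrin receptor. A total of 50 members were well above background, by the scanner software's own test of each spot, on all 28 arrays, whereas Efna5 and Efnb2 were well above background on none.

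The 28 samples formed 7 groups of 4 female adult Sprague Dawley rats. T0 animals, labelled sham in the sample labels and uninjured in the paper, had no contusion. T1, T2, T4 and T8 animals received a 250 kdyn contusion at the eighth thoracic vertebra and were sacrificed 1, 2, 4 and 8 weeks later (the group T8 is a time point, not a vertebra). T1_NPC animals received NPCs right after the same contusion and were sacrificed at week 1, and T2_NPC animals received them 1 week after it and were sacrificed at week 2. The NPCs were grown as neurospheres from cords of adult rats injured 1 week earlier and were injected on both sides of the epicentre. The methods put all animals on the immunosuppressant tacrolimus (FK-506) from the day before transplantation, and injured controls of the transplantation on an injection of medium without cells. The labels do not say whether the T1 and T2 animals received either. Each sample was about 1.5 cm of cord around the epicentre, without dura mater, and held grafted and host cells together.

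During development, guidance ligands steer growing axons by attracting or repelling the growth cone, and several of them are known in the injured adult cord as part of an environment that limits axon growth. Secreted class 3 semaphorins bind neuropilins that signal through plexins, whereas most membrane semaphorins bind plexins directly. Ephrins and Eph receptors signal on contact in both directions, Slits repel axons through Robo receptors, and netrins attract through Dcc or repel through Unc5 receptors. Most of these families also act on blood vessels, glia and immune cells.

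The deposited values exist in 2 forms, and these name different samples for 16 of the 28 arrays. Each column of the normalized value table had the rank order of exactly 1 scanner output, but for those 16 arrays that output was deposited under another sample. The results below use the value table with its own sample names. With the scanner outputs under the samples they were deposited with, 0 of the 65 genes passed the test at T1, T2, T4 or T8 against T0 (7, 3, 18 and 11 at an unadjusted p under 0.05). On the 12 arrays whose forms name the same sample, 20, 23, 16 and 25 of the 65 passed it, with T1 and T4 on 1 array each and assumed to vary like the other groups. T1_NPC replicate 2, whose scanner output was deposited under a T0 sample, also stood apart. Its mean correlation with the other arrays of its group was 0.9711, against 0.9795 or more for the other 3, and its summed level of 6 fibroblast and meningeal markers was 32900 against 107000 to 212000.

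Guidance genes moved in both directions after injury. By limma's moderated test, 33 of the 65 genes differed from T0 at T1 at a Benjamini-Hochberg adjusted p under 0.05 (10 higher and 23 lower), beside 44.1% of all gene names. At T2 there were 29 (8 higher, 21 lower), beside 40.0%. At T4 there were 29 (10 higher, 19 lower), beside 38.5%, and at T8 there were 27 (12 higher, 15 lower), beside 39.7%. The share of members called, from 50.8% at T1 to 41.5% at T8, was thus near that of the whole array at each time. The median difference over the members, on the log2 scale, was -0.17 at T1 and -0.14 at T8, against -0.10 and -0.045 over all gene names. More called genes were lower than higher at each time, as over all gene names (19.1% higher and 25.1% lower at T1, 18.2% and 21.5% at T8). Among member changes of at least 2-fold, this balance turned at T1 (9 higher and 8 lower), T4 (8 and 6) and T8 (9 and 7). It did not turn at T2 (7 and 11). Changes of at least 2-fold were not counted over all gene names. The balance also turned at T8 with scaling to the 75th percentile (15 higher and 13 lower). In the first scan session alone and on the 12 undisputed arrays, T1 and T4 held 1 injured array each, so the balance there is not read. At T8, more called genes were lower than higher in both settings (11 higher and 14 lower in each). Both settings hold the same time-course arrays, so they are not separate checks. Every array of the second scan session is among the 16 whose forms name different samples.

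A core of 23 genes passed the test in 1 direction at all 4 times (8 higher and 15 lower), beside 28.2% of all gene names, and 27 of the 65 passed it at no time. Of the 10 that changed at least 2-fold at all 4 times, 6 were higher and 4 lower. In 4, 5, 2 and 6 of the 24 genes with more than 1 probe, at least 1 probe passed at T1, T2, T4 and T8 where the mean of the gene did not. The 8 higher genes were Sema3c, Sema3d, Efna4, Efnb1, Nrp1, Plxnb2, Plxnc1 and Plxnd1. The 15 lower genes were Sema4d, Sema4f, Sema4g, Sema6b, Efna3, Slit2, Slit3, Epha5, Epha6, Epha8, Ephb1, Robo3, Unc5a, Unc5c and Unc5d. The 4 comparisons share the T0 arrays. In whole tissue, fewer cells of a type and less RNA per cell cannot be told apart. Among ligands, 15, 13, 14 and 13 of 31 passed at T1, T2, T4 and T8, and among receptors 17, 15, 15 and 14 of 31.

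**Figure D1:**
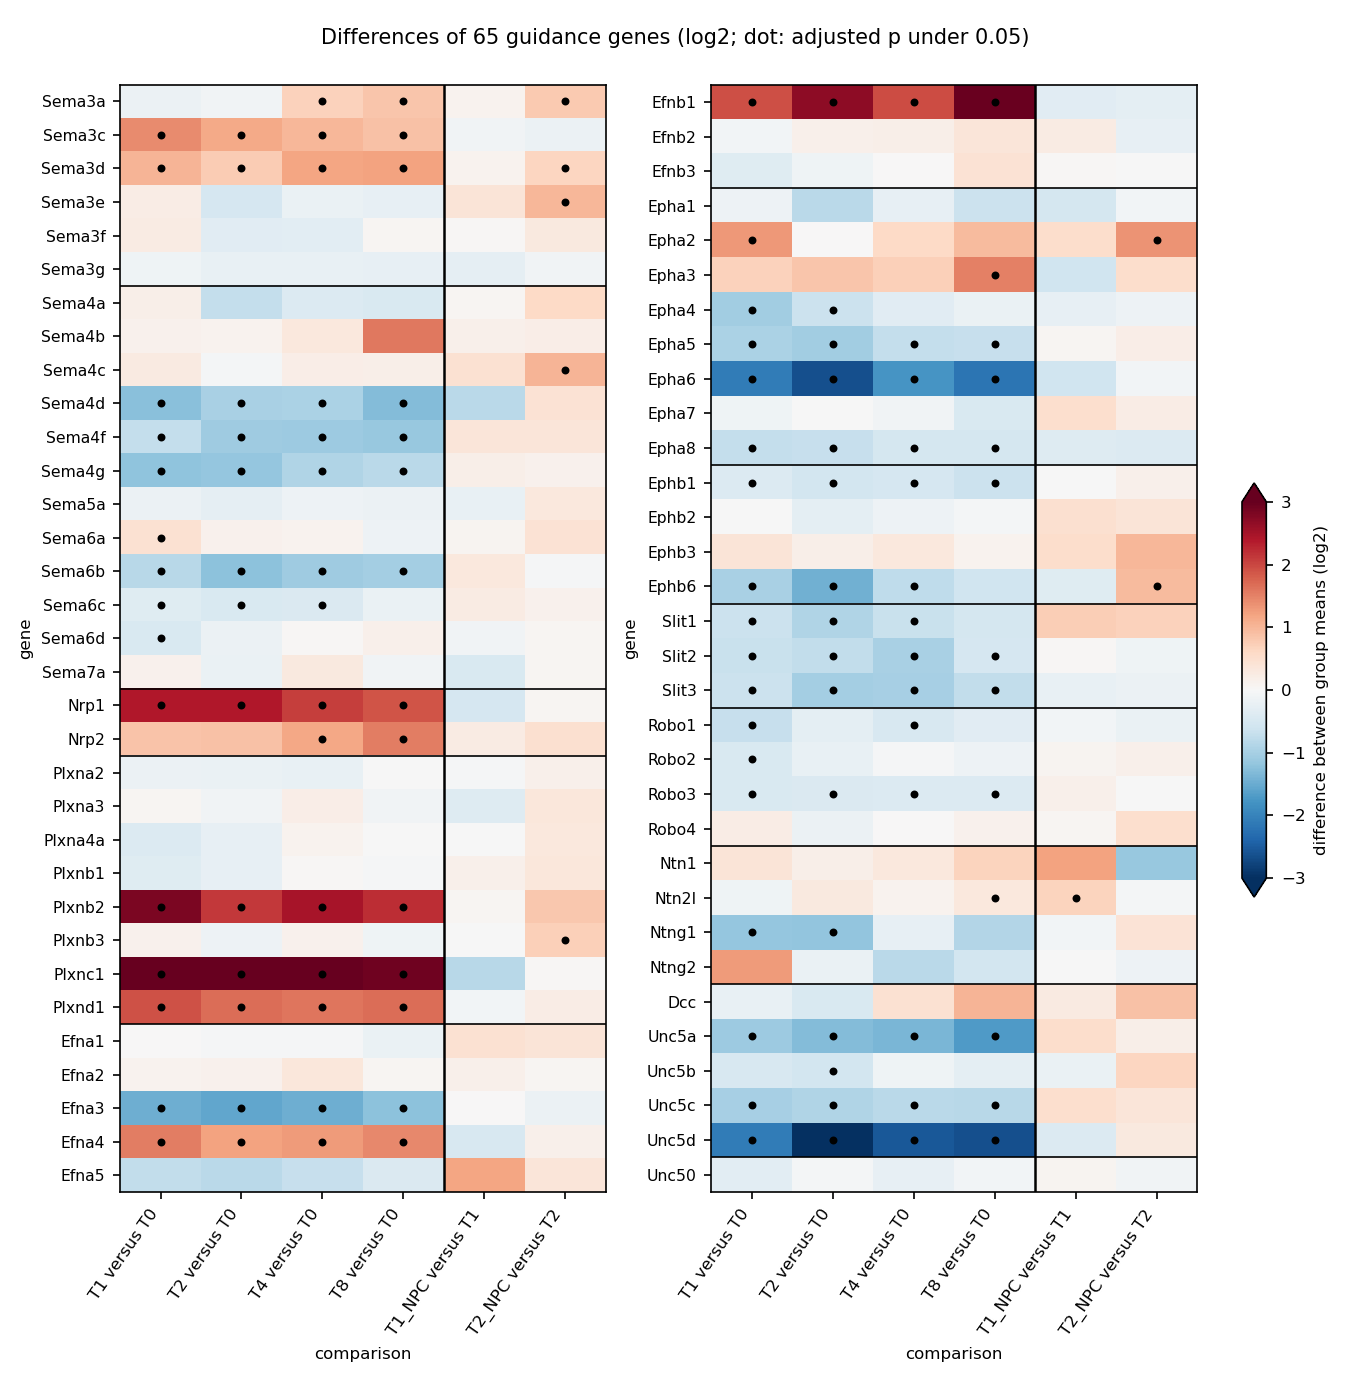
Differences between group means (log2) for the 65 guidance genes, with genes in rows grouped by family and comparisons in columns, the 4 injury comparisons left of the thick line and the 2 transplantation comparisons right of it; a dot marks an adjusted p under 0.05. The colour scale ends at 3 in both directions. Nrp1, Plxnb2, Plxnc1, Plxnd1 and Efnb1 are higher and Epha6 and Unc5d lower in all 4 injury columns, while the transplantation columns hold 1 and 7 dots.

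Markers of several cell types also moved between these groups. All 7 measured neuronal markers fell at every time, and their summed level was 285000 to 375000 in T0 arrays and 76000 to 148000 in T1 arrays. All 7 microglial and macrophage markers rose, from a sum of 39000 to 61900 in T0 to 451000 to 526000 in T1. The 6 fibroblast and meningeal markers all rose at T1, from a sum of 5520 to 8200 to one of 124000 to 225000. Of 6 oligodendrocyte markers, 4, 5, 3 and 5 fell at T1, T2, T4 and T8. All 4 T cell markers rose at each time, and Cd3e and Cd2 were well above background on no T0 array. Of 5 Schwann cell markers, 4 rose at each time, by up to 8.23 at T4, and 1 fell at T1, T4 and T8. Of 6 astrocyte markers, 4 fell and 1 rose at T1, the lowest at -2.59. Of 5 endothelial markers, 2 rose and 1 fell at T1, 1 rose and 1 fell at T4, and 1 rose at T2 and at T8. The part of these shifts in the differences of the guidance genes was not tested.

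Secreted semaphorins rose or did not pass the test. Of the 6 measured class 3 genes, 2 rose at T1 and T2 and 3 at T4 and T8, and none fell. Levels and differences are given on the log2 scale, on which 1 unit is a 2-fold difference. Sema3c lay at 5.61, 5.48, 5.11 and 5.55 in the T0 arrays and at 6.58, 7.16, 6.82 and 6.81 in the T1 arrays. The lowest T1 array was above the highest T0 array. The difference was 1.41 (SE 0.17, adjusted p = 5.37e-07) at T1 and 0.87 (adjusted p = 0.000258) at T8. Sema3d was higher by 1.01 (SE 0.15, adjusted p = 5.22e-06) at T1 and by 1.22 (adjusted p = 5.02e-07) at T8. Sema3a, the class 3 ligand known for collapsing growth cones, lay at 5.77, 6.25, 5.62 and 6.10 in T0 arrays, at 5.55, 6.30, 5.68 and 5.52 in T1 arrays, and at 6.88, 6.50, 7.00 and 6.73 in T8 arrays. T1 arrays thus overlapped T0 arrays, while all T8 arrays were above both. Its difference from T0 was -0.17 (SE 0.17, adjusted p = 0.454) at T1, -0.10 (adjusted p = 0.695) at T2, 0.69 (adjusted p = 0.00208) at T4 and 0.84 (adjusted p = 0.000279) at T8.

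More membrane semaphorins fell than rose. Of 12 measured genes, 6 fell and 1, Sema6a, rose at T1 (0.47, SE 0.19, adjusted p = 0.0449, a call that ended when any 1 of 12 of the 28 arrays was left out), and 5, 5 and 4 fell at T2, T4 and T8 with no rise. Sema4d, a ligand of Plxnb1 that oligodendrocytes express, lay at 10.14, 10.64, 10.24 and 10.42 in T0 arrays and at 9.10, 9.07, 8.99 and 9.07 in T8 arrays, with no overlap. Its difference was -1.26 (SE 0.37, adjusted p = 0.00759) at T1 and -1.30 (adjusted p = 0.00652) at T8. At T2 and T4 it was -0.98 (adjusted p = 0.0382) and -0.94 (adjusted p = 0.0477), and leaving out any 1 of 7 and of 21 of the 28 arrays, respectively, ended those calls. Sema4f fell by 0.71 (SE 0.25, adjusted p = 0.0234) at T1 and by 1.14 (adjusted p = 0.000695) at T8. Sema4g fell by 1.21 (SE 0.17, adjusted p = 2.47e-06) at T1, and Sema6b fell by 1.24 (SE 0.23, adjusted p = 0.000106) at T2. Sema4b lay at 10.95 in T8 replicate 1 against 5.22 to 5.54 in the other 3 T8 arrays and 4.96 to 5.37 in T0 arrays, and its T8 mean did not pass the test (1.59, SE 0.72, adjusted p = 0.0829). Sema7a, a ligand of Plxnc1, did not pass the test at any time (0.12, SE 0.16, adjusted p = 0.598 at T1).

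The ephrins split within their families. Efnb1, a transmembrane ligand of EphB receptors, lay at 7.61, 7.59, 7.78 and 7.65 in T0 arrays, at 9.25, 10.17, 9.76 and 9.15 in T1 arrays, and at 10.63, 10.49, 10.63 and 10.76 in T8 arrays. Every injured array was above every T0 array. The difference was 1.93 (SE 0.34, adjusted p = 6.8e-05), or 3.8-fold, at T1 and 2.97 (adjusted p = 2.88e-07), or 7.84-fold, at T8. Efnb3, a ligand known in myelin, did not pass the test against T0 at any time, and Efnb2 stayed below the level that counts as well above background on all arrays.

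Of the 5 membrane-anchored ephrin-A ligands, Efna3 fell and Efna4 rose at all 4 times. Efna3 lay at 8.56, 8.62, 8.82 and 8.88 in T0 arrays and at 7.44, 7.12, 7.58 and 6.86 in T1 arrays, a difference of -1.47 (SE 0.24, adjusted p = 1.91e-05). Efna4 lay at 4.65, 4.77, 4.19 and 5.36 in T0 arrays and at 5.92, 6.66, 5.85 and 6.64 in T1 arrays, a difference of 1.52 (SE 0.32, adjusted p = 0.000404). Neither gene had a T1 array within the T0 range. Both differences kept their direction at T8, at -1.23 (adjusted p = 0.000171) for Efna3 and 1.45 (adjusted p = 0.000775) for Efna4. Of the 2 Efna3 probes, only the brighter passed at T8 (-2.10, adjusted p = 3.66e-05). The dimmer read -0.36 (adjusted p = 0.414), with T8 replicate 2 at 8.39, above all its T0 arrays.

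All 3 Slits, the secreted ligands of Robo receptors, fell at T1, T2 and T4, and 2 of them at T8. Slit3 lay between 10.87 and 11.06 in T0 arrays and at 9.69, 10.19, 10.20 and 9.73 in T2 arrays, with no overlap, a difference of -1.03 (SE 0.18, adjusted p = 5.01e-05). Slit2 differed by -0.66 (SE 0.19, adjusted p = 0.00522) at T1 and by -0.97 (adjusted p = 0.000186) at T4. Of its 2 probes, the dimmer passed at each time (-1.02, adjusted p = 0.000116 at T1). The brighter passed at T4 only (-0.705, adjusted p = 0.00709). It read -0.31 (adjusted p = 0.232) at T1, -0.497 (adjusted p = 0.0529) at T2 and -0.255 (adjusted p = 0.346) at T8. The T8 call of the Slit2 mean (-0.51, adjusted p = 0.0328) ended without replicate 1 or replicate 2 of T0 or of T8. Slit1 averaged -0.64 (SE 0.26, adjusted p = 0.0497) at T1 and -0.66 (adjusted p = 0.0496) at T4, 2 calls that ended when any 1 of 25 of the 28 arrays was left out, and -0.90 (adjusted p = 0.00773) at T2.

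The 2 probes of Slit1 read different transcript records, and the array annotation ties the first below to the splice form SLIT1-La. Their first 30 of 60 bases, as the array annotation gives them, are shown because the level of the gene is the mean of both:
A_43_P10382: tattgccctccaggcctcagctcttgcaca
A_43_P15296: gttgcatccggaatctatacatcaacaacg
On the rat build rn4 the first lies at chr1:246814557-246814617 and the second at chr1:246815889-246815948, both on the minus strand, and their place in exons was not assigned here. Probe A_43_P10382 differed from T0 by -0.45 (SE 0.22, adjusted p = 0.108) at T1 and by -0.31 (adjusted p = 0.295) at T2. Probe A_43_P15296 lay at 6.88, 7.02, 6.75 and 7.30 in T0 arrays and at 5.01, 5.95, 5.59 and 5.46 in T2 arrays, with no overlap. It differed from T0 by -0.84 (SE 0.32, adjusted p = 0.0351) at T1, -1.49 (adjusted p = 0.000524) at T2, -1.04 (adjusted p = 0.0113) at T4 and -0.91 (adjusted p = 0.0245) at T8.

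Few netrins passed the test. Ntn1, the axon attractant of the developing midline, was well above background on 4 of 28 arrays and passed no test (0.38, SE 0.45, adjusted p = 0.536 at T1). Ntn2l was higher by 0.32 (SE 0.12, adjusted p = 0.0391) at T8, a call that ended without any 1 of 7 arrays. Ntng1, a membrane-anchored netrin-G that binds a synaptic adhesion partner and not Dcc, was lower at T1 (-1.16, SE 0.36, adjusted p = 0.011) and T2 (-1.18, adjusted p = 0.0103).

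Semaphorin receptors held the 3 largest rises at T1. Plxnc1, a plexin known from myeloid cells, lay at 7.98, 8.03, 8.28 and 7.90 in T0 arrays, at 10.89, 11.84, 11.12 and 11.83 in T1 arrays, and at 11.20, 10.84, 11.35 and 10.46 in T8 arrays. All injured arrays of the time course exceeded the highest T0 array. The difference was 3.38 (SE 0.48, adjusted p = 3.76e-06), or 10.4-fold, at T1 and 2.92 (adjusted p = 2.76e-05), or 7.55-fold, at T8. In the transplanted T1_NPC group, replicate 2 lay at 8.18, inside the T0 range, while the other 3 lay at 11.77, 10.84 and 11.55. The scanner output of replicate 2 was deposited under a T0 sample.

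Plxnb2, a receptor of class 4 semaphorins, lay at 7.62, 8.47, 7.53 and 8.78 in T0 arrays and at 10.54, 11.09, 10.60 and 11.50 in T1 arrays. No injured array fell within the T0 range. The difference was 2.83 (SE 0.36, adjusted p = 7.47e-07), or 7.12-fold, at T1 and 2.22 (adjusted p = 2.14e-05), or 4.67-fold, at T8. Plxnd1, a receptor of Sema3e known from blood vessels, was higher by 1.91 (SE 0.29, adjusted p = 8.37e-06) at T1 and by 1.68 (adjusted p = 4.84e-05) at T8. The other 5 of the 8 plexins, Plxna2, Plxna3, Plxna4a, Plxnb1 and Plxnb3, passed no test against T0.

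Both neuropilins, the ligand-binding partners of plexins for class 3 semaphorins, rose after injury, Nrp1 at all 4 times and Nrp2 at T4 and T8. Nrp1, which also binds vascular endothelial growth factor, lay at 6.91, 7.37, 6.82 and 7.53 in T0 arrays and at 8.99, 10.10, 9.12 and 10.07 in T1 arrays, with no overlap. It rose by 2.41 (SE 0.34, adjusted p = 3.58e-06), or 5.32-fold, at T1 and by 1.89 (adjusted p = 8.55e-05), or 3.7-fold, at T8. Nrp2 lay at 3.80, 4.35, 4.33 and 2.95 in T0 arrays, of which 2 were well above background, and at 5.27, 5.26, 5.10 and 5.89 in T8 arrays. Its difference was 0.87 (SE 0.35, adjusted p = 0.0503) at T1, 0.87 (adjusted p = 0.054) at T2, 1.16 (adjusted p = 0.0114) at T4 and 1.52 (adjusted p = 0.00118) at T8. The T4 call ended without T0 replicate 4.

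**Figure D2:**
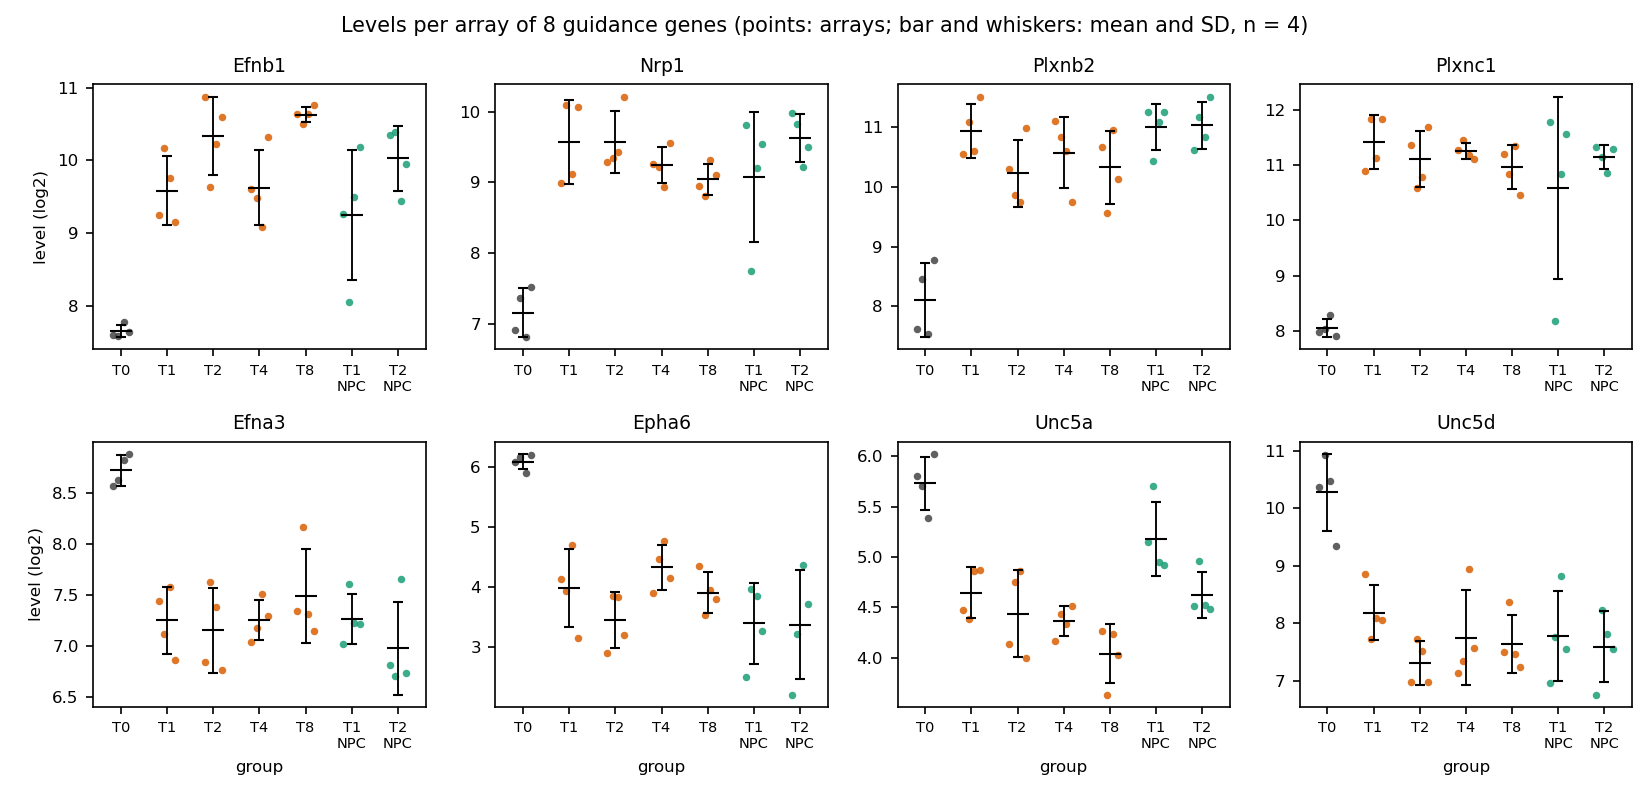
Levels per array (log2, vertical axis of each panel) of Efnb1, Nrp1, Plxnb2, Plxnc1, Efna3, Epha6, Unc5a and Unc5d in the 7 groups (horizontal axis), with points for arrays and bars with whiskers for the mean and SD of 4 arrays. The injured groups of the time course sit above T0 in the first 4 panels and below it in the last 4. The low Plxnc1 point in T1_NPC, at 8.18, is replicate 2.

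Because Plxnc1 and Plxnb2 rose together, the 250 bases upstream of their annotated starts are shown from RefSeq (build GRCr8, 5′ to 3′ towards the gene), with capitals on the letters GGGCGG and their reverse complement, which the factor Sp1 is known to bind:
Plxnc1: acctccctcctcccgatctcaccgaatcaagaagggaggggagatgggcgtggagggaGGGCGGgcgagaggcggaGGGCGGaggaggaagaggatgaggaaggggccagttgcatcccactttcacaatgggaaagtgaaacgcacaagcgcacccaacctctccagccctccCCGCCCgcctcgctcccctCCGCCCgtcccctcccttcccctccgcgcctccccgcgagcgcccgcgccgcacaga
Plxnb2: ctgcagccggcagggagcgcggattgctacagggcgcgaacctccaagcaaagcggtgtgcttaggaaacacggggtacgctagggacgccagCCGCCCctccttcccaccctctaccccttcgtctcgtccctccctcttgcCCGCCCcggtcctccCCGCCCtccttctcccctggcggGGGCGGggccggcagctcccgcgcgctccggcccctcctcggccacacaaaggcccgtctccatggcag
They lie at chr7:31430606-31430855 and chr7:122137949-122138198, both on the minus strand, and each holds 4 such matches. On either strand, GGGCGG stood in 28 of the 52 member promoters at hand (53.8%) and in 32.4% of all 27457 promoters of the same length. It stood in 3 of the 8 genes that were higher at all 4 times (Plxnb2, Plxnc1 and Plxnd1) and in 6 of the 10 lower genes with a promoter. Members were richer in G and C (median 61.4%) than all promoters (52%), and GGGCGG holds only those bases. TGANTCA, the AP-1 motif, was in 6.36% of all promoters and in 0 of the 52. GAGGAAG, an Ets-type motif that overlaps neither, was in 10.1% of all and in 8 of the 52, with 2 matches in Plxnc1.

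More Eph receptors fell than rose. Of 8 EphA genes, 4, 4, 3 and 3 fell at T1, T2, T4 and T8. Epha6 showed the largest fall among them. It lay at 6.09, 6.17, 5.91 and 6.20 in T0 arrays and at 2.91, 3.85, 3.84 and 3.20 in T2 arrays, a difference of -2.64 (SE 0.38, adjusted p = 5.6e-06). No T2 array came near the T0 range, and 2 of them were well above background. Epha5 and Epha8 fell at all 4 times, by 0.96 (SE 0.24, adjusted p = 0.00205) and 0.72 (SE 0.19, adjusted p = 0.00277) at T1. Of the 2 Epha5 probes, the dimmer did not pass at T4 (-0.64, adjusted p = 0.071) or T8 (-0.51, adjusted p = 0.157).

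On the mean of its 3 probes, Epha4 was low early and nearer T0 later. It is a receptor of both ephrin classes that is known for restricting axon growth. It lay at 8.42, 8.76, 8.31 and 8.56 in T0 arrays, at 7.54, 7.23, 7.98 and 7.15 in T1 arrays, and at 8.33, 8.16, 8.21 and 8.57 in T8 arrays. T1 arrays were all below T0 arrays, and T8 arrays overlapped them. The difference from T0 was -1.04 (SE 0.16, adjusted p = 1.53e-05) at T1, -0.63 (adjusted p = 0.00308) at T2, -0.33 (adjusted p = 0.118) at T4 and -0.20 (adjusted p = 0.381) at T8. The probes differed. The brightest still passed at T4 (-0.59, adjusted p = 0.0223) and read -0.47 (adjusted p = 0.0616) at T8. The dimmest passed at T1 only and read -0.16 (adjusted p = 0.748) at T2, and the remaining probe passed at T1 and T2. Epha2 at T1 (1.30, SE 0.43, adjusted p = 0.0169) and Epha3 at T8 (1.51, SE 0.53, adjusted p = 0.0242) were the EphA genes that rose, each well above background on 1 T0 array. The Epha2 call at T1 ended without T0 replicate 1, T0 replicate 3 or T1 replicate 4.

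Epha7 averaged -0.13 at T1 (SE 0.22, adjusted p = 0.694), but its 2 probes moved in opposite directions. The first 30 of their 60 bases, as the array annotation gives them, are shown because the gene level hides this split:
A_44_P241909: gtcggaattctagacaaaatgattcgaaat
A_44_P254373: tggatgttgcaacactagaggaagcttcag
On rn4 the first lies at chr5:44875578-44875637 and the second at chr5:44854010-44858047, both on the plus strand. The second covers 4038 bases with 60 letters, so it reads across a gap in the genome. Probe A_44_P241909 lay at 3.51, 4.40, 3.85 and 4.86 in T0 arrays, 2 of them well above background, and at 4.74, 5.72, 5.08 and 6.02 in T1 arrays. These ranges overlapped slightly. It differed by 1.24 (adjusted p = 0.00595) at T1, 1.06 (adjusted p = 0.0182) at T2, 1.08 (adjusted p = 0.0172) at T4 and 0.53 (adjusted p = 0.257) at T8. Probe A_44_P254373 lay at 7.25, 6.82, 6.94 and 6.71 in T0 arrays and at 5.20, 5.54, 5.59 and 5.45 in T1 arrays, with no overlap. It fell by 1.49 (adjusted p = 1.21e-07) at T1, 1.07 (adjusted p = 1.38e-05) at T2, 1.30 (adjusted p = 1.44e-06) at T4 and 1.43 (adjusted p = 2.93e-07) at T8.

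**Figure D3:**
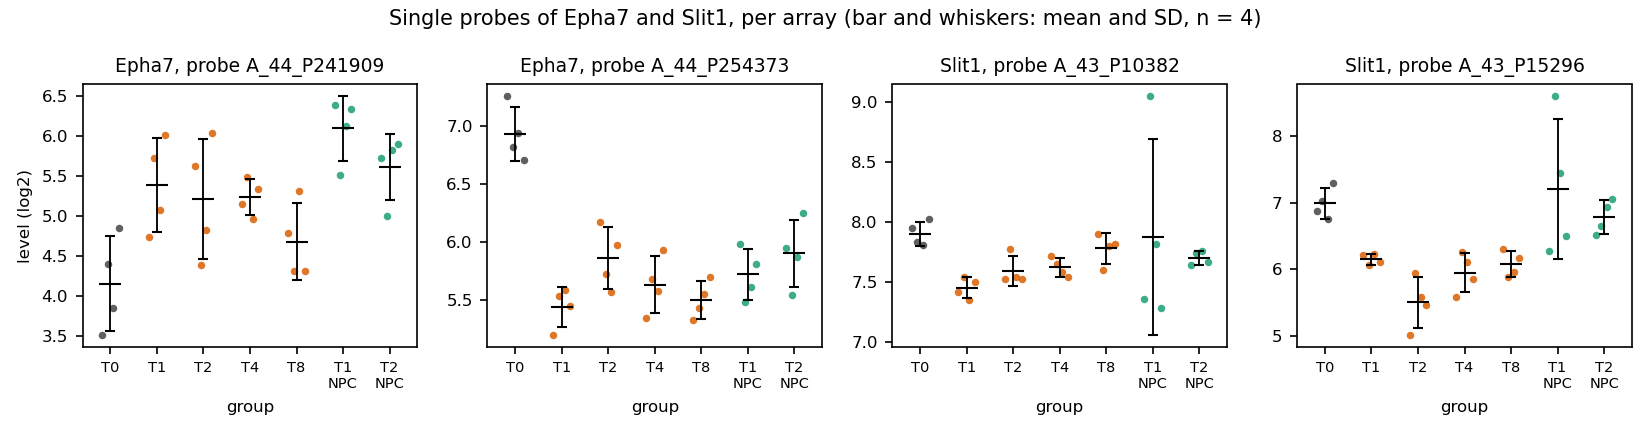
Levels per array (log2, vertical axes) of the single probes of Epha7 (2 panels on the left) and Slit1 (2 panels on the right) in the 7 groups, with points for arrays and bars with whiskers for the mean and SD of 4 arrays. The Epha7 probes sit on opposite sides of their T0 levels after injury, and the T1_NPC group of both Slit1 probes holds 1 high array, replicate 2, at 9.05 and 8.60.

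Among the 4 EphB genes, Ephb1 and Ephb6 fell. Ephb1 was lower at each time, from -0.40 (SE 0.12, adjusted p = 0.00769) at T1 to -0.65 (adjusted p = 9.24e-05) at T8. Of its 2 probes, the brighter passed at each time. The dimmer did not pass at T1 (-0.15, adjusted p = 0.414) or T4 (-0.285, adjusted p = 0.12). Ephb6, an Eph receptor without kinase activity, lay at 7.48, 7.34, 7.46 and 7.86 in T0 arrays and at 5.45, 6.86, 6.52 and 5.50 in T2 arrays, a difference of -1.45 (SE 0.25, adjusted p = 5.55e-05). The T2 arrays lay below all T0 arrays and were widely spread. One of its 2 probes was well above background on no T2 array, and the other differed by -0.83 (SE 0.14, adjusted p = 3.92e-05). The mean of Ephb2 passed no test, while 1 of its 2 probes passed in the transplanted groups.

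Robo and Unc5 receptors fell or did not pass the test at any time. Of 4 Robo genes, 3 fell at T1. Robo1, a main Slit receptor, lay at 7.92, 7.85, 7.46 and 7.80 in T0 arrays and at 7.04, 7.02, 7.34 and 6.86 in T1 arrays, with no overlap. It fell by 0.69 (SE 0.14, adjusted p = 0.000227) at T1 and by 0.47 (adjusted p = 0.0082) at T4, and differed by -0.30 (adjusted p = 0.0866) at T2. The mean of the 3 Robo2 probes fell by 0.46 (SE 0.13, adjusted p = 0.0052) at T1, but the probes differed. At T1 they read -0.80 (adjusted p = 0.00017), -0.70 (adjusted p = 0.000171) and 0.13 (adjusted p = 0.713). The first of them also passed at T2 (-0.43, adjusted p = 0.031) and T8 (-0.47, adjusted p = 0.0186), where the mean did not. Robo3, a receptor of commissural axons, was lower on the mean of 2 probes at T1 (-0.45, SE 0.14, adjusted p = 0.0126) and T8 (-0.41, adjusted p = 0.023). One of these probes was well above background on 0 of 28 arrays, and the other read -0.85 (adjusted p = 0.0117) at T1 and -0.74 (adjusted p = 0.0298) at T8. Robo4, known from endothelial cells, passed no test.

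Unc5d, a netrin receptor that also binds FLRT proteins, lay at 10.37, 10.93, 10.48 and 9.34 in T0 arrays, at 8.86, 7.72, 8.09 and 8.06 in T1 arrays, and at 6.98, 7.73, 7.52 and 6.98 in T2 arrays. All injured arrays were below the lowest T0 array. The difference was -2.10 (SE 0.43, adjusted p = 0.000281), or 4.28-fold, at T1 and -2.98 (adjusted p = 5e-06), or 7.88-fold, at T2. Unc5a lay at 5.81, 5.71, 5.39 and 6.02 in T0 arrays and at 4.27, 3.63, 4.24 and 4.03 in T8 arrays, with no overlap. It fell by 1.09 (SE 0.21, adjusted p = 0.000143) at T1 and by 1.69 (adjusted p = 6.31e-07) at T8. Unc5c fell by 1.00 (SE 0.18, adjusted p = 6.75e-05) at T1. Unc5b, known from vessels, passed the test at T2 only (-0.55, SE 0.20, adjusted p = 0.0353), a call that ended without replicate 2 or 4 of T0 or replicate 1 or 3 of T2. Dcc, well above background on no T0 array and on all 4 T8 arrays, passed no test. Its T8 arrays (4.47 to 5.52) nevertheless lay above its T0 arrays (3.58 to 3.89), a difference of 1.02 (adjusted p = 0.0795).

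Between neighbouring time points no member passed the test. The counts were 0 for T2 against T1 (11 at an unadjusted p under 0.05), beside 1.48% of all gene names, 0 for T4 against T2 (6 unadjusted), beside 0.0761%, and 0 for T8 against T4 (6 unadjusted), beside 0.0902%. For T8 against T1, 6 genes passed it, beside 9.87%, with 15 at an unadjusted p under 0.05. Sema3a was higher at T8 by 1.01 (SE 0.17, adjusted p = 0.000224) and Epha4 by 0.84 (SE 0.16, adjusted p = 0.00114). Efnb3 was higher by 0.79 (SE 0.19, adjusted p = 0.00673), Sema6d by 0.62 (SE 0.13, adjusted p = 0.00292) and Ntn2l by 0.45 (SE 0.12, adjusted p = 0.0184), a call that ended without T8 replicate 3.

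Efnb3 lay at 4.17, 4.21, 4.10 and 4.44 in T1 arrays and at 5.19, 4.92, 4.64 and 5.34 in T8 arrays. Sema6d lay at 8.81, 8.95, 8.95 and 9.07 in T1 arrays and at 9.63, 9.60, 9.52 and 9.52 in T8 arrays. For both genes every T8 array was above every T1 array. Sema6a was lower at T8 (-0.62, SE 0.19, adjusted p = 0.0343) with overlapping arrays, and this call ended without either of 2 T1 or 2 T8 arrays. Of 6 astrocyte markers, 3 were also higher at T8 than at T1, as were 3 of 5 Schwann cell markers (sums of 71300 to 89700 against 39100 to 44000), and the part of these in the 6 differences was not tested. Within each of the 2 scan sessions of the time course, all 6 differences and all members called against T0 kept their direction. The sessions hold the arrays that gave these calls, so this was favoured in advance and is no separate check. The first session held 1 T1 and 1 T4 array. Every array of the second is among the 16 whose forms name different samples.

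**Figure D4:**
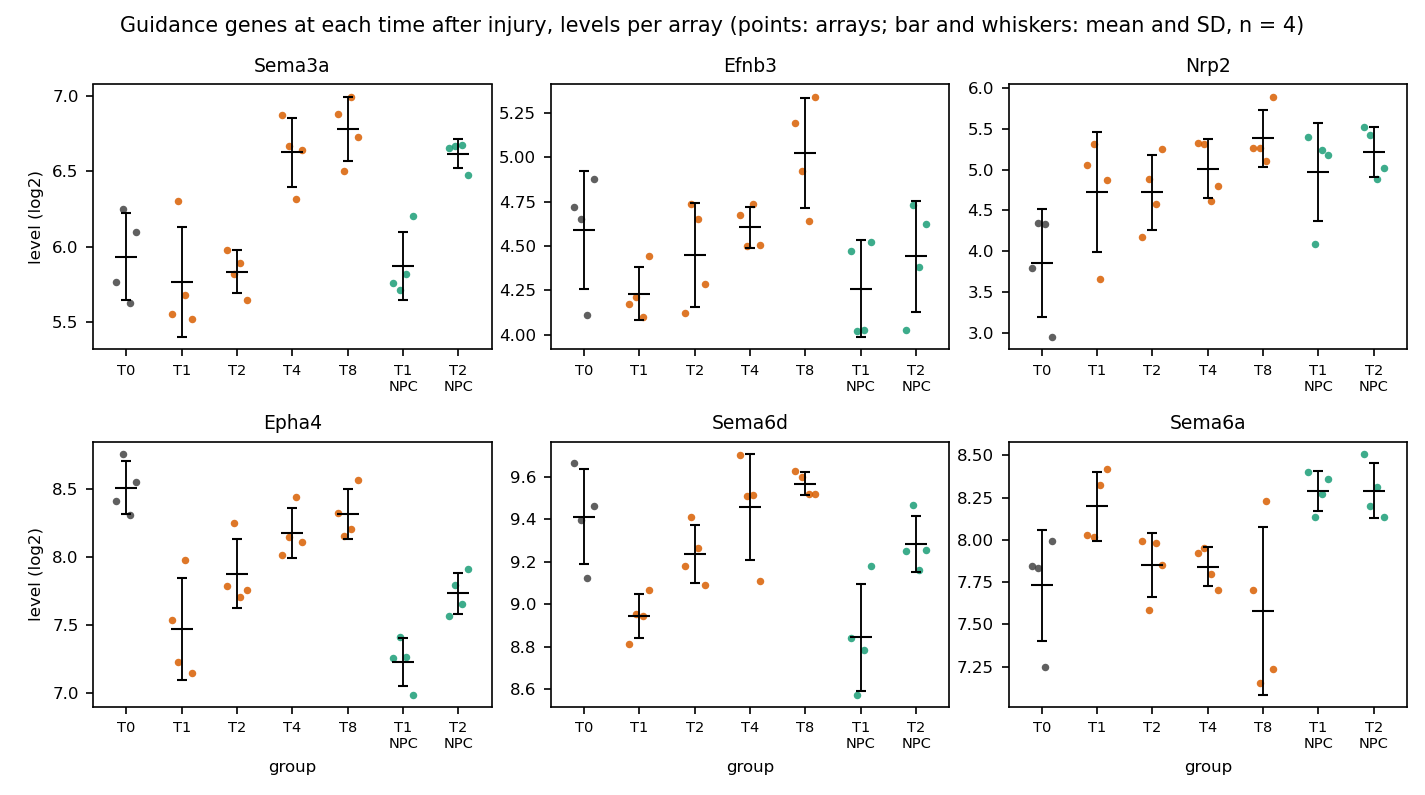
Levels per array (log2, vertical axes) of Sema3a, Efnb3, Nrp2, Epha4, Sema6d and Sema6a in the 7 groups (horizontal axes), with points for arrays and bars with whiskers for the mean and SD of 4 arrays. Sema3a lies near T0 at T1 and T2 and above it at T4 and T8, whereas Epha4 is lowest at T1 (7.15 to 7.98) and overlaps T0 at T8.

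Transplantation was compared with the injured group of the same week. Each transplanted group lay alone on 1 slide, and both were scanned in a session that held no other group, so that slide, session and transplantation cannot be told apart. Every T1_NPC array, and every T1 array but replicate 1, is among the 16 whose forms name different samples. Every T2_NPC array is among the 12 whose forms name the same sample, as are replicates 2 and 3 of T2. In T1_NPC against T1, 1 member passed the test (13 unadjusted), beside 11.9% of all gene names. It was Ntn2l, at 8.54, 8.59, 8.67 and 8.61 in T1 arrays and at 9.18, 9.64, 8.98 and 9.31 in T1_NPC arrays, with no overlap. The difference was 0.68 (SE 0.12, adjusted p = 0.000994), and without T1_NPC replicate 2 it was 0.56 (adjusted p = 0.00393). When only the 2 groups entered the fit, its adjusted p was 0.0579.

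In T2_NPC against T2, 7 members were higher and none lower (16 unadjusted), beside 9.47% of all gene names. When only the 2 groups entered the fit, 6 were higher and 1 lower. Sema3a, which did not differ from T0 at T2 beyond its spread, lay at 5.97, 5.82, 5.89 and 5.64 in T2 arrays and at 6.65, 6.67, 6.67 and 6.47 in T2_NPC arrays, a difference of 0.78 (SE 0.17, adjusted p = 0.00506). Sema4c, a membrane semaphorin that binds Plxnb2, lay at 5.78, 6.13, 5.68 and 6.14 in T2 arrays and at 7.19, 6.65, 6.83 and 7.14 in T2_NPC arrays, a difference of 1.02 (SE 0.22, adjusted p = 0.00546). Neither gene overlapped between the groups. Plxnb3, a plexin that binds Sema5a, was higher by 0.71 (SE 0.21, adjusted p = 0.0325), with no overlap. Sema3e was higher by 1.00 (SE 0.26, adjusted p = 0.017) with 1 array of each group at nearly the same level, 5.77 and 5.76, and the call ended without T2 replicate 2 or T2_NPC replicate 2.

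The other 3 of the 7 were Sema3d, Ephb6 and Epha2. Sema3d was higher by 0.65 (SE 0.15, adjusted p = 0.00685), in the direction of its injury change. Of its 2 probes, the dimmer differed by 1.16 (adjusted p = 0.00122) and the other by 0.14 (adjusted p = 0.683). Ephb6 was higher by 0.94 (SE 0.25, adjusted p = 0.0211), opposite to its injury change. Its brighter probe, however, differed by 0.37 (adjusted p = 0.093), and the call ended without replicate 1 or 4 of T2 or replicate 3 or 4 of T2_NPC. Epha2 was higher by 1.35 (SE 0.43, adjusted p = 0.0498) and was well above background on 1 T2 array and on all 4 T2_NPC arrays, and this call ended when any 1 of 22 of the 28 arrays was left out. Single probes passed in 5 members of T2_NPC and 3 of T1_NPC whose mean did not. Ephb2 differed on its brighter probe by 0.79 (adjusted p = 0.0254) in T2_NPC and by 0.79 (adjusted p = 0.0223) in T1_NPC, and on the other by -0.04 (adjusted p = 0.956) and 0.18 (adjusted p = 0.719). Slit1 differed on probe A_43_P15296 by 1.28 (adjusted p = 0.012) in T2_NPC and by 1.05 (adjusted p = 0.0323) in T1_NPC. On its other probe it differed by 0.11 (adjusted p = 0.821) and 0.42 (adjusted p = 0.224). T1_NPC replicate 2, the array that stood apart, was the highest of its group on both probes (8.60 and 9.05).

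**Figure D5:**
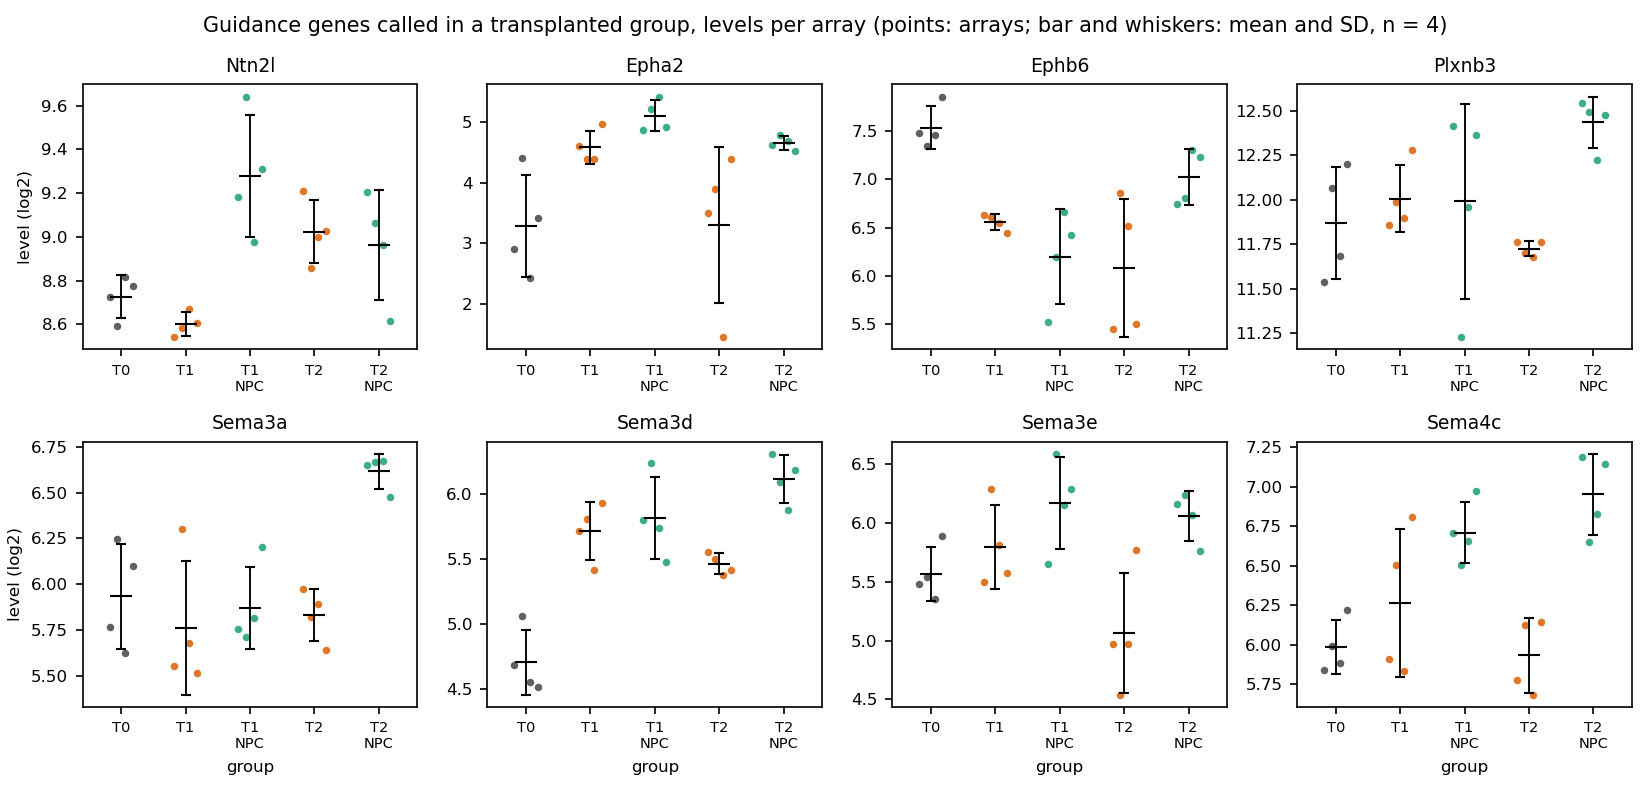
Levels per array (log2, vertical axes) of the 8 genes called in a transplanted group (Ntn2l, Epha2, Ephb6, Plxnb3, Sema3a, Sema3d, Sema3e and Sema4c) in the groups T0, T1, T1_NPC, T2 and T2_NPC (horizontal axes), with points for arrays and bars with whiskers for the mean and SD of 4 arrays. The Ntn2l points of T1_NPC lie above those of T1, and the other 7 genes have higher T2_NPC than T2 means.

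The difference between the transplantation effects was tested for each gene, and no member passed (10 unadjusted), beside 0.299% of all gene names. The genes of the 2 comparisons are thus not shown to differ in their response. Beside these results, 2 of 6 oligodendrocyte markers were higher in T2_NPC than in T2 (sums of 353000 to 386000 against 253000 to 315000). So was 1 of 2 red blood cell markers (sums of 5300 to 23100 against 1830 to 4030), while no neuronal or fibroblast marker passed. Their part in the 7 differences was not tested.

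Genes that act with or below these receptors also moved in both directions. Of 60 such genes listed, 55 were measured, and 35 (20 higher, 15 lower), 29 (13 and 16), 31 (17 and 14) and 29 (15 and 14) passed the test at T1, T2, T4 and T8 against T0. These are 63.6%, 52.7%, 56.4% and 52.7% of those measured, beside 44.1%, 40.0%, 38.5% and 39.7% of all gene names. Fes, a kinase that acts below plexins, was higher by 3.42 at T1 and by 2.61 on average over the 4 times. Mical1, an enzyme that oxidizes actin below plexins, averaged 2.19, and Flrt2, a ligand of Unc5d, averaged 1.54. Among the lower genes, Rnd1, a small GTPase that binds plexins, averaged -1.86, the Rac regulator Chn1, which acts below Epha4, averaged -1.79, and the kinase Pak3 averaged -1.47. Each of these 6 passed the test at all 4 times. None of the 55 passed it between neighbouring times, while 3 passed in T1_NPC (2 higher, 5.45% beside 11.9% of all gene names) and 7 in T2_NPC (6 higher, 12.7% beside 9.47%).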

How the data were processed

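RNA of 28 rat spinal cord samples was hybridised to single-colour (Cy3) Agilent arrays. The authors deposited scanner outputs with processed intensity per spot from Feature Extraction 10.7.1.1, and a value table of log2 values that they quantile normalized between arrays. The value table was the main input. Of 45018 spots, 43379 were no controls, and these were averaged to 41012 probes and to 35469 gene names, with no filter on dim probes. Group means were estimated on all 28 arrays together in R 4.3.3 with limma 3.58.1, with empirical Bayes moderation (2.26 prior degrees of freedom), two-sided tests and Benjamini-Hochberg adjustment over all gene names at 0.05. Replicates are separate animals, and 4 arrays per group limit the precision. Between 74.5% and 82.7% of spots on an array were well above background, none was saturated, and detection, slide and scan session came from the scanner output with the rank order of the column.

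Members and lists were chosen with earlier results of these data known. Named were the 4 largest rises and falls at each time against T0 and the 3 in other comparisons (called, and well above background on all arrays of 1 group), plus 17 genes whatever their values (Sema3a, Sema4d, Sema7a, Nrp1, Nrp2, Plxnb2, Epha4, Ephb2, Efnb2, Efnb3, Slit1, Slit2, Robo1, Robo2, Ntn1, Unc5b and Dcc). Other named genes were chosen after their values were seen. Same-numbered replicates did not deviate together (median r 0.002, -0.339 to 0.297 over 84 pairs). For the median signal, which all scanner outputs hold, normexp used an offset of 50. Figures used matplotlib 3.10.9, and files were read with pandas 2.3.3, jsonlite 2.0.0 and data.table (version 1.17.8).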

Additional observations from a re-analysis of the deposited data

Results flagged for a closer look

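In 31 of the 455 groups of 4 arrays (65 genes in 7 groups), 1 array lay far from the other 3 relative to the range of its group, which chance alone gives in about 1 of 20 groups. The largest gap was that of Sema4b, at 10.95 in T8 replicate 1. In T0 the arrays were Efna2 at 6.99 and Sema6c at 9.03 in replicate 4 and Sema5a at 7.44 in replicate 1. In T2 they were Epha3 at 5.57 and Nrp1 at 10.21 in replicate 4, Epha4 at 8.26 in replicate 2 and Sema4f at 7.46 in replicate 1. In T4 they were Ntng1 at 5.02, Plxnb1 at 7.05 and Robo4 at 6.43, each in replicate 4. In T8 they were also Ntn2l at 9.18 in replicate 3 and Dcc at 5.52 in replicate 4. In T1_NPC they were Nrp2 at 4.09, Ntng1 at 4.65 and Sema6c at 8.85, each in replicate 2. In T2_NPC they were Efna3 at 7.65, Sema4b at 5.83 and Sema6b at 10.00 in replicate 3, Sema3a at 6.47 and Slit2 at 9.99 in replicate 4, and Unc5a at 4.96 in replicate 2. The rest belonged to Efnb2, Ntn1 and Ntng2, which were well above background on 0, 4 and 1 of 28 arrays. They were Efnb2 at 2.24 in T0 replicate 3, 2.21 in T1 replicate 2, 3.09 in T2 replicate 2, 2.96 in T4 replicate 3 and 3.18 in T1_NPC replicate 3, Ntn1 at 3.37 in T2 replicate 4, 2.66 in T1_NPC replicate 1 and 2.23 in T2_NPC replicate 1, and Ntng2 at 2.17 in T4 replicate 1.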

How the results depend on the processing

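The value table kept 33, 29, 29 and 27 members called at T1, T2, T4 and T8 against T0, 0, 0, 0 and 6 for T2 against T1, T4 against T2, T8 against T4 and T8 against T1, and 1, 7 and 0 for T1_NPC, T2_NPC and their difference. With the scanner outputs as deposited, 0 were called at T1, T2, T4 and T8 against T0, at all 4 times, for T8 against T1, T1_NPC and T2_NPC. The direction of 7 differences then turned: Ntn2l at T8 (-0.041) and in T1_NPC (-0.003), Robo1 at T1 (0.032), Sema4d at T2 (0.50) and T4 (0.21), and Slit2 at T1 (0.16) and T2 (0.065). On the 12 undisputed arrays the counts were 20 at T1, 16 at T4, 12 at all 4 times, 2 for T8 against T1 and 18 for T2_NPC, and T1_NPC could not be fitted. With scanner outputs matched by rank order, T1_NPC had 2 calls. Scaling to the 75th percentile gave 10 for T1_NPC and 2 for the difference, moved the median of all gene names in T1 against T0 from -0.10 to -0.28, and changed the split of T8 against T1 from 5 higher and 1 lower to 7 and 0 and that of T8 against T0 from 12 and 15 to 15 and 13. Normexp gave 3 for T1_NPC and 4 for T2_NPC. Without dim probes there was 1 call for T4 against T2 and 3 for T1_NPC, the brightest probe gave 3 for T1_NPC, only the groups compared gave 0 for T1_NPC (5 unadjusted), and the time-course arrays alone gave 1 for T2 against T1. The slide as a fixed block gave 2 for T2 against T1, 1 for T4 against T2 and 10 for T8 against T1, and the scan session as a fixed block gave 3, 1 and 11. Neither could be fitted for the transplanted groups. The slide as a random block (correlation 0.17) gave 1 for T4 against T2 and 4 for T2_NPC. A change of at least 2-fold left 17 (9 higher, 8 lower), 18 (7 and 11), 14 (8 and 6) and 16 (9 and 7) against T0, 10 at all 4 times (6 and 4), 1 for T8 against T1, 0 for T1_NPC and 2 for T2_NPC. Chosen after seeing the data, scan session 1 alone gave 17 at T1 (9 and 8), 19 at T4 (10 and 9), 13 at all 4 times (8 and 5) and 1 for T8 against T1, and scan session 2 alone gave 2 for T2 against T1 and 1 for T4 against T2. Scan session 1 holds the same time-course arrays as the 12 undisputed arrays, with 1 T1 and 1 T4 array, so these settings are not separate checks. The replicate block, in which samples share only a number and 5 of 28 arrays correlated best with their own, gave 33, 29, 28 and 26 against T0, 7 for T8 against T1, 22 at all 4 times and 1, 7 and 0 for the transplanted groups and their difference. Leaving out each array in turn gave 30 to 35 at T1, 26 to 32 at T2, 23 to 29 at T4, 22 to 30 at T8, 19 to 25 at all 4 times, 0 to 1 for T2 against T1 and for T4 against T2, 0 for T8 against T4, 5 to 9 for T8 against T1, 1 to 6 for T1_NPC (6 without T1_NPC replicate 1), 4 to 10 for T2_NPC (4 without T2 replicate 1 or T2_NPC replicate 2 or 4) and 0 to 2 for the difference (2 without T2 replicate 2). Of the 70 results of named genes so tested, all kept their direction and 54 their call. Except where stated, the causes of these shifts were not tested.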
